A study of Rattus norvegicus with 61 samples.

Results

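Neutrophils and monocytes are the myeloid cell types that were sorted from the blood of rats in this study, with 6 RNA sequencing samples of each. These 12 of the 61 samples of the series were chosen by the names of their columns, and the comparison of the types is described here across transcripts. The animals were male, wild-type, untreated Sprague-Dawley rats, 6 weeks old at purchase. Both cell types were sorted as live CD45+/CD11b+ cells without CD3, CD45RA and CD161. Neutrophils were gated as CD43int with a high side scatter, a measure of granularity, and monocytes by a low side scatter alone. The monocyte gate therefore holds no antigen that monocytes alone carry, and the sources do not say whether each sample came from 1 rat, so p-values measure the spread between these samples. The 24 samples of splenic lymphocytes (B, NK, CD4 T and CD8 T cells, 6 samples each) are used below as a scale. The transcripts carry Ensembl identifiers, of which 0 of 31196 matched the list of 47357 rat genes used for names. The labels could therefore not be checked against marker genes, and the results are given over transcripts without gene names.

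Neutrophils are short-lived granulocytes that leave the bone marrow with granules already filled and that arrive early at sites of injury. Monocytes circulate for longer and can become macrophages or dendritic cells in tissues. Mature neutrophils are known for a small content of RNA and a condensed, lobed nucleus, whereas monocytes keep a larger synthetic machinery. Both types use CD11b, an integrin subunit, for adhesion to the vessel wall.

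The values derive from Salmon, a program that assigns reads to transcripts. Dividing each value by the total of its sample and multiplying by 1000000 gave back numbers with 6 decimals for 100% of the 565428 values between 0.1 and 10 in the series, within 1e-08. Salmon writes its TPM, a level per 1000000 transcripts corrected for transcript length, with that precision. Each deposited value is therefore a TPM multiplied by the library total, and levels below are in TPM and can be compared between transcripts. The totals ran from 9510256 to 10995313 in monocytes and from 10154776 to 13576585 in 5 of the neutrophil samples. Neutrophil replicate 5 had a total of 3429971, and the median of the other 5 was 3.19 times higher. Several of the measures below are also given without that sample.

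The transcript pool of neutrophils was more concentrated in a few transcripts than that of monocytes. The most abundant transcript of a sample held between 3.20% and 5.80% of the total in neutrophils, with a median of 4.05%, and between 1.30% and 2.05% in monocytes, with a median of 1.50%. The 10 most abundant transcripts together held 14.1% to 18.7% in neutrophils (median 15.6%) and 9.11% to 11.5% in monocytes (median 9.48%). All 6 neutrophil samples lay above all 6 monocyte samples in this share. The mean was 16.1% ± 1.74 in neutrophils and 9.74% ± 0.865 in monocytes (SD, n = 6 each), 6.37 percentage points apart. In a two-sided exact permutation test over all 924 splits of 6 against 6 samples, p was 0.00216, the smallest that the design allows, and 0.00346 after Benjamini-Hochberg adjustment over 8 measures of breadth and abundance. Without neutrophil replicate 5 the neutrophil mean was 16.5% ± 1.62 (SD, n = 5).

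Longer lists contain the 10 most abundant transcripts. Their gap was smaller, at 4.60 percentage points for 100 transcripts and 4.64 for 1000, against 6.37 for 10. They and the effective number below describe the same distribution as the share of the top 10 and are not separate observations. The 100 most abundant transcripts held 40.5% ± 3.11 in neutrophils and 35.9% ± 1.04 in monocytes, and the 1000 most abundant held 75.4% ± 2.18 and 70.8% ± 0.493 (SD, n = 6 each). For both lists all neutrophil samples lay above all monocyte samples (exact permutation test, adjusted p = 0.00346). Between 133 and 207 transcripts made up 50% of the pool in a neutrophil sample, against 215 to 248 in a monocyte sample. The effective number of transcripts, the exponential of the Shannon entropy, is the number of equally abundant transcripts that would give the same diversity. It was 1372 ± 205 in neutrophils and 1931 ± 77.7 in monocytes (SD, n = 6 each), and all neutrophil samples lay below all monocyte samples (exact permutation test, adjusted p = 0.00346). In the splenic lymphocyte samples the effective number ran from 1133 to 2040, a span that holds all monocyte samples and most neutrophil samples. The share of the 10 most abundant transcripts was 10.1% to 13.7% in those lymphocyte samples, below that of every neutrophil sample.

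**Figure D1:**
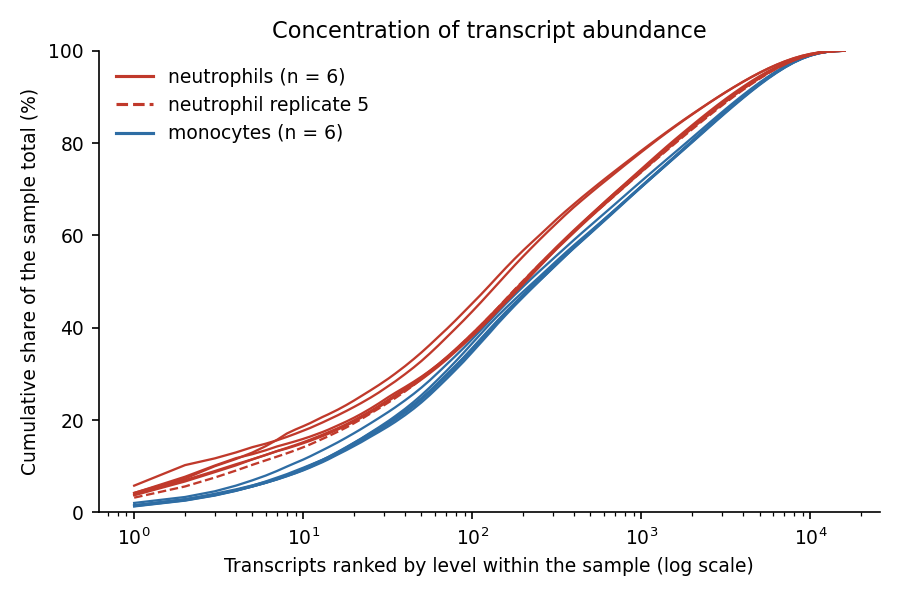
Cumulative share of the sample total (%, y axis) held by the transcripts ranked from the most abundant (x axis, log scale), with 1 line per sample. The 6 neutrophil lines lie above the 6 monocyte lines at ranks 10, 100 and 1000, and at those ranks the 2 highest lines are neutrophil replicates 1 and 2.

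Neutrophil samples were not alike in this respect. Replicates 1 and 2 had an effective number of 1121 and 1101, and the other 4 lay between 1446 and 1548. The shallow replicate 5 was at the upper end of that range, and the neutrophil mean without it was 1336 ± 208 (SD, n = 5). Among monocytes, replicate 2 stood apart with an effective number of 1777, and the other 5 lay between 1932 and 1983.

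Both types drew on largely the same abundant transcripts. Of the 100 with the highest mean level, 80 were shared, and of the 1000 highest, 816. Of the 10 highest, 5 were shared. Across the 13455 transcripts with a mean of at least 1 TPM, the correlation between a neutrophil and a monocyte sample on the scale log2(TPM + 1) was between 0.893 and 0.925. Within neutrophils it was 0.944 to 0.973, and within monocytes 0.966 to 0.974. These correlations are across transcripts, which are not independent replicates.

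The number of transcripts above 0 did not separate the types. It was 15314 in neutrophil replicate 5, 16834 to 17190 in the other neutrophil samples and 16431 to 16914 in monocytes. When every sample was brought to the total of the shallowest one by rarefaction, a calculation of the number expected in a smaller draw, neutrophils had 15384 ± 225 and monocytes 15492 ± 116 (SD, n = 6 each). The mean difference of -108 did not exceed the spread of the samples (exact permutation p = 0.348, adjusted 0.398). Without neutrophil replicate 5 it was -34.5 (exact permutation p = 0.693). Because the values are rescaled TPM and not reads, this correction for depth is approximate. Replicate 5 remained the lowest neutrophil sample after it, with 15017 against 15305 to 15645 in the others.

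Breadth differed once a minimum level was asked for. At least 10 TPM was reached by 6548 to 7376 transcripts in neutrophils (median 7106) and by 7787 to 8044 in monocytes (median 7935), with no overlap between the types. The mean difference was -937 transcripts (exact permutation p = 0.00216, adjusted 0.00346), and neutrophil replicate 5 was the highest of its group here. Without it the neutrophil mean was 6913 ± 339 (SD, n = 5). At least 1 TPM was reached by 12990 ± 231 transcripts in neutrophils and 13316 ± 88.2 in monocytes (SD, n = 6 each), a difference of -326. It passed the test (exact permutation p = 0.0130, adjusted 0.0173), and 4 of 6 neutrophil samples lay below all monocyte samples. At 1000 TPM or more the ranges overlapped, with 163 to 172 transcripts in neutrophils and 155 to 167 in monocytes. These levels are relative to the sample total, so a larger share in the top transcripts lowers all others.

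**Figure D2:**
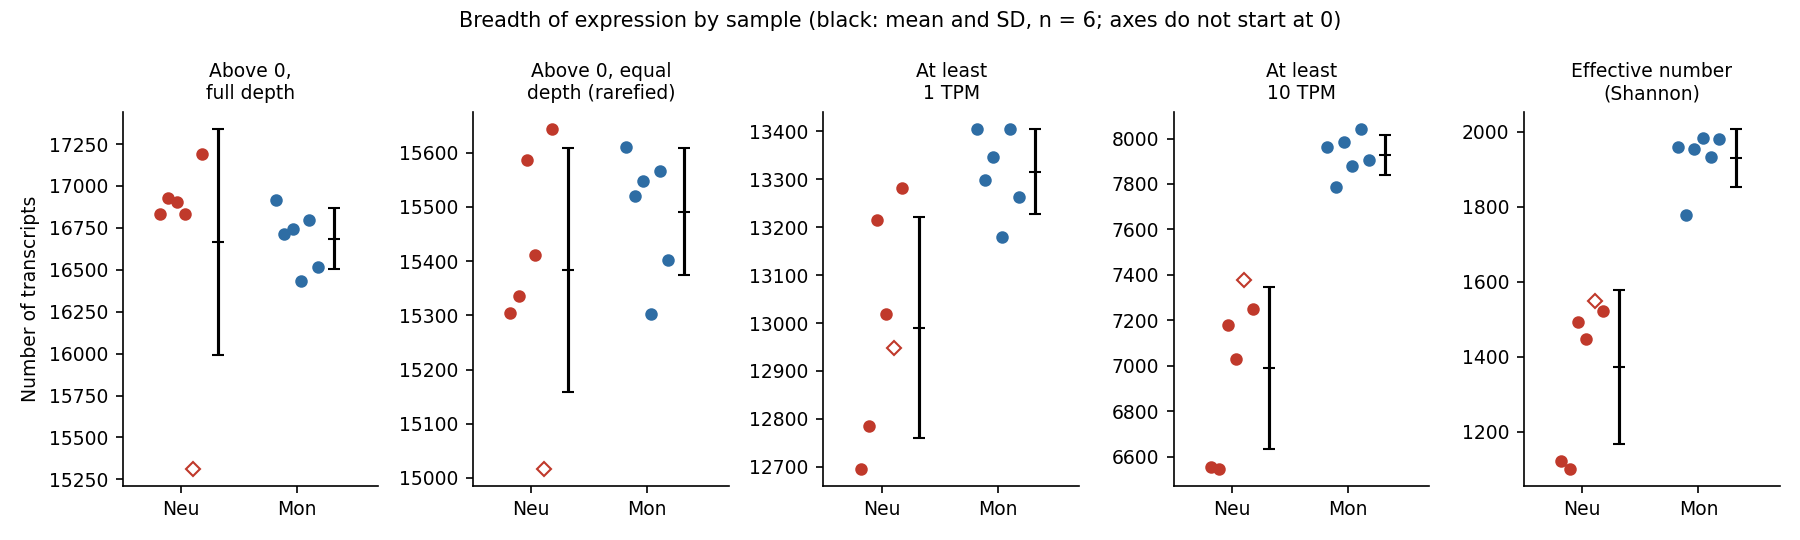
Number of transcripts in each sample (y axis, a separate scale per panel) above 0 at full depth, above 0 after rarefaction to equal depth, at 1 TPM or more, at 10 TPM or more, and as the effective number. Points are the 6 neutrophil (Neu) and 6 monocyte (Mon) samples, the open diamond is neutrophil replicate 5, and black bars give the mean and SD. The types separate fully at 10 TPM and in the effective number.

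Transcripts found in all samples of 1 type were mostly also found in the other. At least 1 TPM in all 6 samples was seen for 11365 transcripts in neutrophils and 11942 in monocytes, with 10964 common to both. The rule was met in neutrophils alone by 401 and in monocytes alone by 978. Falling under 1 TPM in 1 sample of the other type was enough for that, so these transcripts need not be absent from it. Without replicate 5, 11575 transcripts met the rule in neutrophils. A stricter rule asked for at least 1 TPM in all 6 samples of a type and at most 3 counts in every sample of the other. It was met by 0 transcripts of neutrophils and by 5 of monocytes. For neutrophils the number was 4 without monocyte replicate 1, 3 without monocyte replicate 2 and 2 without neutrophil replicate 5. Low levels in 1 type of transcripts that are high in the other, given below, bear on this rule, and their source was not tested. Those 5 had mean levels of 1.53 to 7.84 TPM in monocytes, and 3 of them were listed at 0 in all neutrophil samples. A mean of 1 TPM or more in a splenic lymphocyte type was also found for 3 of the 5. The limit of 3 counts corresponds to 0.221 TPM in the deepest sample and 0.875 TPM in neutrophil replicate 5.

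Many transcripts differed between the types. In edgeR's quasi-likelihood test with TMM normalization, which centres the bulk of transcripts at no change, 6365 of 13448 had a Benjamini-Hochberg adjusted p-value under 0.05, or 47.3%. Of these, 3077 (22.9% of those tested) were higher in neutrophils and 3288 (24.4%) were higher in monocytes. Without TMM normalization, 1579 were higher in neutrophils and 6349 in monocytes. The fits differ in their centre: over all transcripts tested, the median log2 fold change was -0.03 with TMM normalization and -0.38 without it. All 3288 transcripts higher in monocytes remained so without TMM normalization, but 1579 of the 3077 higher in neutrophils did, and 22 changed direction. Which type had more calls also turned with the tool and the samples, with 3333 higher in neutrophils and 3083 in monocytes in DESeq2 and 3305 and 2845 in a fit of all 36 sorted samples. The direction of a small difference thus depends on the scaling. Unless stated otherwise, the edgeR calls and folds below are relative to the bulk of transcripts, as is the joint scaling with lymphocytes. All other levels below use TPM without TMM normalization and carry the shift between these centres. These are the pool shares, ratios of mean TPM, list levels and summed levels.

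Most of the differences were small. The median difference on the log2 scale was 0.73 among transcripts higher in neutrophils (quartiles 0.44 and 1.36) and 0.60 among those higher in monocytes (quartiles 0.41 and 0.94). At least a 2-fold difference was found for 1099 transcripts higher in neutrophils (8.17% of those tested) and 745 higher in monocytes (5.54%). Without TMM normalization the same limit was met by 761 and 1643 transcripts. The balance shifted with size, and at least 4-fold was found for 437 and 131, and at least 8-fold for 208 and 16. In 11 transcripts on each side of the last count, all 6 samples of the lower type were at 0, so their fitted folds depend on the added count and give no size.

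**Figure D3:**
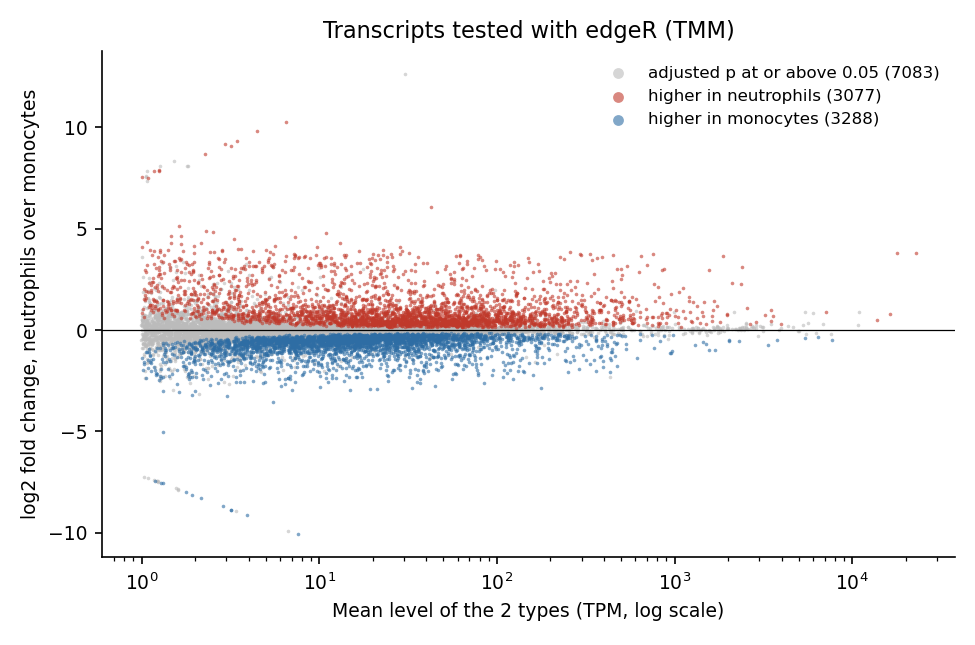
log2 fold change of neutrophils over monocytes (y axis) against the mean level of both types (TPM, log scale, x axis) for the 13448 transcripts tested, coloured by the edgeR call. On the neutrophil side 208 called transcripts lie at an 8-fold difference or more and 31 at a 16-fold difference or more. The slanted rows far from 0 are mainly transcripts listed at 0 in 1 type, whose fold changes are set by the small count that edgeR adds.

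Ranges of TPM that do not overlap between the types were found for 967 transcripts with neutrophils above (7.19% of those tested) and for 4487 with monocytes above (33.4%). This count uses TPM without TMM normalization, so it carries the shift given above. The spread between samples was smaller in monocytes. The median SD of a transcript on the scale log2(TPM + 1) was 0.163 in monocytes and 0.269 in neutrophils, and 76.5% of transcripts had the higher SD in neutrophils. Without replicate 5 these values were 0.259 and 72.0% in neutrophils, so the spread was also wider in the samples of full depth. Neutrophil replicates 1 and 2 stood apart from the others here too. Their correlation with each other was 0.971, that among replicates 3, 4 and 6 was 0.972 to 0.973, and that between these sets was 0.948 to 0.964.

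The share of differing transcripts rose with abundance up to a point. It was 33.0% of the 5805 transcripts with a mean of 1 to 10 TPM, 57.0% of 6276 between 10 and 100 TPM and 67.4% of 1203 between 100 and 1000 TPM. Among the 162 above 1000 TPM it was 37.0%. Between 100 and 1000 TPM, 571 transcripts were higher in neutrophils and 240 in monocytes, while between 1 and 10 TPM the numbers were 745 and 1170. The neutrophil-higher transcripts with at least a 2-fold difference held 18.8% to 25.1% of the pool in neutrophil samples and 4.93% to 7.03% in monocyte samples. Their monocyte-higher counterparts held 4.04% to 4.60% of the pool in monocytes and 0.940% to 1.60% in neutrophils. These shares describe transcripts chosen on the same samples and are given without a test.

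The splenic lymphocytes, which took no part in the choice, give a scale for both sides of these differences. The neutrophil and monocyte samples did take part in it. A raised share or median of the higher type over lymphocytes is therefore partly set by the choice. Shares over all transcripts are given beside it as a scale and not as a test. Of the 1099 transcripts at least 2-fold higher in neutrophils, 996 had a level in a joint scaling of all 36 sorted samples. That scaling kept transcripts with a mean of at least 1 TPM over the 36 samples, of which 24 are lymphocytes. Transcripts low in lymphocytes were thus left out more often, and all shares in this paragraph depend on that filter. In 874 of them (87.8%) the mean of neutrophils was above the means of all 4 lymphocyte types, against 37.5% of all 14173 transcripts of that scaling. In 542 of the 874, monocytes were also above all 4 lymphocyte types, in 179 they were within the lymphocyte means and in 153 they were below all of them. In a further 117 transcripts (11.7%) monocytes were below all 4 lymphocyte types and neutrophils were not above them. Over all 14173 transcripts, monocytes were below all lymphocyte types in 46.3%, wherever neutrophils lay. The counterpart of that share is the 153 plus the 117 transcripts, and not the 117 (11.7%) alone. For those at least 2-fold higher in monocytes, 701 of 745 had a level, and 574 (81.9%) were above all lymphocyte types in monocytes, against 35.0% of all transcripts. In 316 of the 574 neutrophils were also above all lymphocyte types, in 123 they were within and in 135 below. In a further 122 (17.4%) neutrophils were below all lymphocyte types and monocytes were not above them. Over all transcripts neutrophils were below in 47.5%, wherever monocytes lay. The counterpart of that share is the 135 plus the 122 transcripts, and not the 122 alone. Relative to the lymphocyte mean, the median log2 difference of the neutrophil-higher group was 2.08 in neutrophils and 0.37 in monocytes. For the monocyte-higher group it was 1.36 in monocytes and 0.13 in neutrophils.

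Large folds were rarer between the myeloid types than against lymphocytes. Of 2412 transcripts with a mean of at least 50 TPM in neutrophils, 95 were at least 4 times and 35 at least 8 times as high as in monocytes by the ratio of mean TPM, but 3 were at least 12 times as high. Against the splenic types, 143 (NK cells) to 220 (CD8 T cells) of the same transcripts were at least 12 times as high. Of 2807 transcripts with at least 50 TPM in monocytes, 62 were at least 4 times, 3 at least 8 times and 0 at least 10 times as high as in neutrophils. Against the splenic types, 54 (NK cells) to 176 (CD4 T cells) were at least 12 times as high.

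The levels in the second myeloid type were also read from lists chosen without it. A neutrophil list held the 75 transcripts with at least 50 TPM in neutrophils and at least 20 times the mean of each splenic lymphocyte type. In monocytes their mean level was 15.9% of that in neutrophils at the median and 9.46% at the 10th percentile, and 23 of the 75 lay between 8% and 12%. Only 2 lay under 5%, of which 1 is described below and 1 was above 0 in a single neutrophil sample. The list was chosen on the same neutrophil samples, so its calls are no independent result: edgeR called 74 of the 75 higher in neutrophils, where 22.9% of all transcripts were. The level moved from sample to sample for the list as a whole. Its median was 21.1% in monocyte replicate 1 and 10.0% in monocyte replicate 5, with 13.5% to 17.6% in the other 4. Monocyte replicate 5 had the lowest level of the 6 in 62 of 75 transcripts and replicate 1 the highest in 46. The summed level of the list was 91628 to 141198 TPM in neutrophils and 10575 to 23469 TPM in monocytes.

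The corresponding monocyte list held 12 transcripts. Their mean level in neutrophils was 11.2% of that in monocytes at the lowest and 20.6% at the median. Of the 12, 2 were higher in neutrophils than in monocytes, and these 2 are also members of the neutrophil list. Chosen on the tested samples as well, 9 were called higher in monocytes and 2 in neutrophils by edgeR, where 24.4% and 22.9% of all transcripts were. Both lists depend on their limit. At 5 times in place of 20 times each lymphocyte type, the neutrophil list held 295 transcripts with a median level of 46.9% in monocytes. The monocyte list then held 243 with a median level of 84.7% in neutrophils, of which 97 were called higher in monocytes and 114 in neutrophils. The remaining values are for the 12. The median over the list was highest in neutrophil replicate 5, at 28.8%, and lowest in replicate 1, at 14.7%. Replicate 5 had the highest level of the 6 neutrophil samples in 8 of the 12 transcripts. The summed level went the other way, with 1403 TPM in replicate 5 and 1511 to 1826 TPM in the other neutrophil samples, since the few abundant members weigh most in a sum. The sum includes the 2 transcripts shared with the neutrophil list, so it is not a level of monocyte transcripts alone. The part of cells or RNA of the second type in these levels was not tested.

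**Figure D4:**
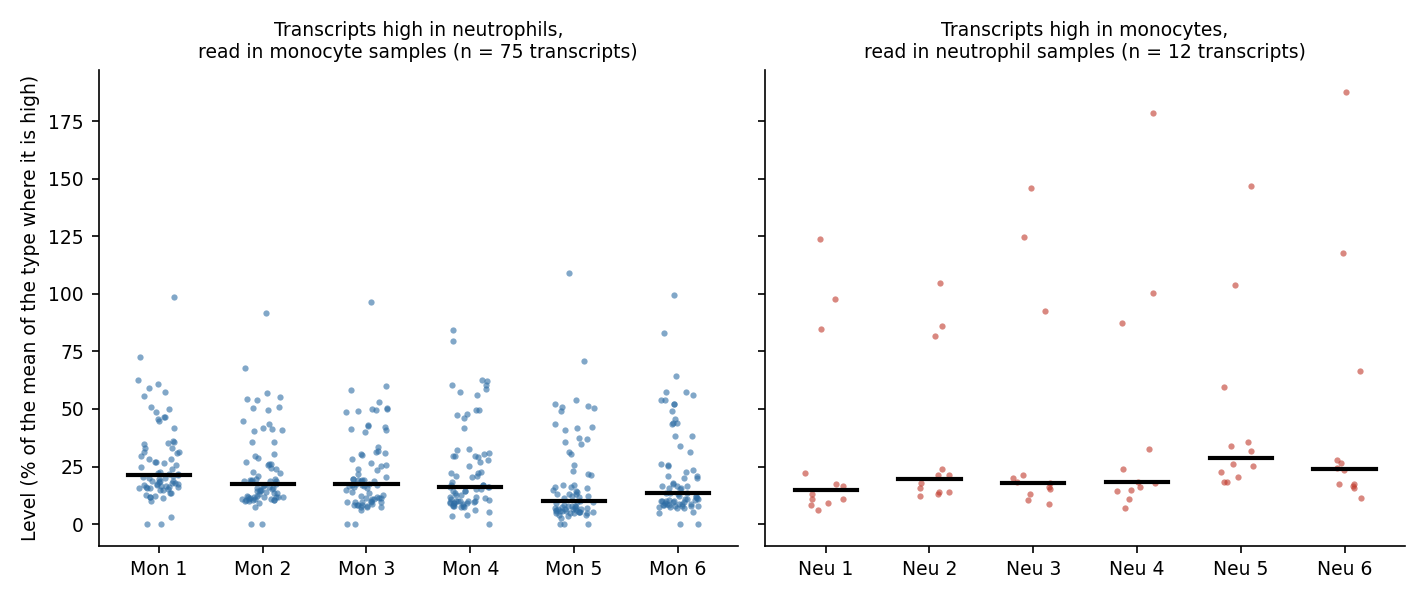
Level of each list transcript in each sample of the second myeloid type, as a percentage of its mean in the type where it is high (y axis). The left panel shows the 75 neutrophil transcripts in the 6 monocyte samples and the right panel the 12 monocyte transcripts in the 6 neutrophil samples, with points for transcripts and bars for medians. The monocyte medians run from 10.0% to 21.1% and the neutrophil medians from 14.7% to 28.8%.

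Transcripts higher in 1 lymphocyte type than in the others were present in both myeloid types, at similar summed TPM for B and T cells. They were chosen among lymphocytes alone, with no limit on myeloid cells, so they do not mark lymphocytes against neutrophils or monocytes. For NK cells, the mean sum was 73.3% of that in NK cells in neutrophils and 54.4% in monocytes. Whether the myeloid cells themselves express these transcripts was not tested. With CD4 and CD8 T cells taken as 1 type, 0 transcripts with a mean of at least 50 TPM were 20 times higher in 1 lymphocyte type than in the others, so lists at a 2-fold limit were made after seeing this. The B cell list of 41 transcripts summed to 5612 to 13701 TPM in B cells, to 679 to 1218 TPM in neutrophils and to 793 to 1499 TPM in monocytes. The T cell list of 29 transcripts summed to 2325 to 6134 TPM in T cells, 1500 to 2304 TPM in neutrophils and 1649 to 2370 TPM in monocytes. Neither sum differed between the myeloid types beyond the spread (exact permutation test, adjusted p = 0.357 for both, over 3 lists). The sums use TPM without TMM normalization, a scale that lowers neutrophils relative to monocytes, as given above. The result therefore holds for that scale alone, and the sums were not tested with TMM normalization. No transcript of these lists was at 0 in all samples of either myeloid type. The NK cell list of 71 transcripts was higher in neutrophils, with 15281 to 19244 TPM against 12034 to 13239 TPM in monocytes and 8095 to 36729 TPM in NK cells. All neutrophil samples lay above all monocyte samples in that sum (exact permutation p = 0.00216, adjusted 0.00649). In edgeR's test 37 of its 71 transcripts were higher in neutrophils and 9 in monocytes, 4 and 4 of the 41 of the B cell list, and 6 and 0 of the 29 of the T cell list, beside 22.9% and 24.4% of all transcripts. In such bulk samples, fewer cells of a type and less RNA per cell cannot be told apart, and the part of other cells in the differences was not tested.

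Of the transcripts that differed most, those first in each direction are given by identifier. They were ranked by fold change among transcripts with an adjusted p-value under 0.05, at least 50 TPM in the higher type and no overlap between the samples. ENSRNOT00000087826 was at 35.8 to 120 TPM in neutrophils (median 89.8). It was listed at 0 in 5 of 6 monocyte samples and at 9.88 TPM in monocyte replicate 4. Its log2 fold change was 6.06 ± 0.93 (SE, edgeR, adjusted p = 0.000139). Its smallest value above 0 in any of the 61 samples was 1.60 TPM. It was listed at 0 in all NK cell, CD4 T cell, CD8 T cell and liver samples and was at 14.6 to 42.9 TPM in whole blood cells.

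ENSRNOT00000048739 was at 43.0 to 72.6 TPM in neutrophils (median 49.8) and at 1.37 to 6.04 TPM in monocytes (median 3.98). The ranges were far apart, and the log2 fold change was 4.09 ± 0.28 (SE, edgeR, adjusted p = 1.5e-07). Its means in the 4 splenic lymphocyte types were 0.355 to 0.510 TPM, and it was at 3.68 to 13.8 TPM in whole blood cells. Its highest levels in the series were in liver. They were 2445 to 4601 TPM after acetaminophen, 2542 to 3734 TPM in the control livers and 1769 to 2414 TPM after methylene dianiline.

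ENSRNOT00000041606 was at 4.27 to 11.0 TPM in neutrophils (median 6.05) and at 51.0 to 68.0 TPM in monocytes (median 59.4). Its log2 fold change was -2.86 ± 0.18 (SE, edgeR, adjusted p = 8.8e-08). Neutrophil replicate 5 was the highest of its group. In the splenic lymphocytes it was at 0.439 to 2.83 TPM and in whole blood cells at 6.58 to 13.1 TPM.

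ENSRNOT00000047434 was at 24.2 to 58.7 TPM in neutrophils (median 32.4) and at 213 to 398 TPM in monocytes (median 325). Its log2 fold change was -2.84 ± 0.23 (SE, edgeR, adjusted p = 5.2e-07). Replicate 5 was again the highest neutrophil sample. Its level in neutrophils lay within the span of the splenic lymphocyte samples, which was 11.4 to 61.6 TPM.

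**Figure D5:**
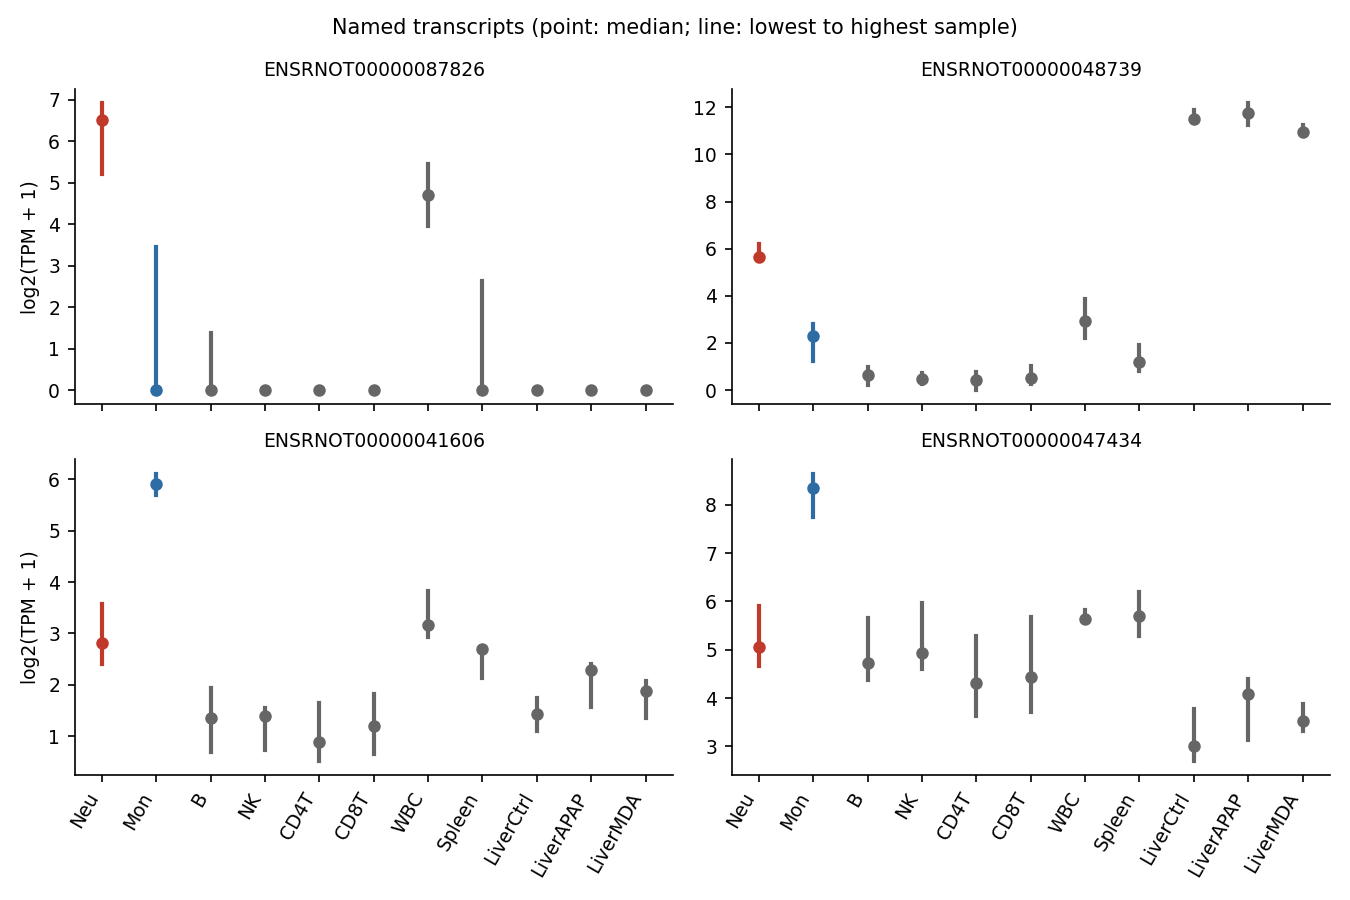
Levels of the 4 transcripts as log2(TPM + 1) (y axis) in each group of the series, with a point for the median and a line from the lowest to the highest sample (Neu, neutrophils; Mon, monocytes; WBC, whole blood cells; n = 6 for sorted types and n = 5 for the others). LiverCtrl, LiverAPAP and LiverMDA are livers after vehicle, acetaminophen and methylene dianiline. The upper pair was highest in neutrophils and the lower pair in monocytes among the sorted types, and ENSRNOT00000048739 was highest in liver.

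The correlation of neutrophil replicate 5 with the other neutrophil samples was 0.944 to 0.955, against 0.948 to 0.973 among those. Without it, 6240 transcripts differed, of which 3164 were higher in neutrophils and 3076 in monocytes, and 3005 and 2963 of the calls made with it were kept. The balance of calls thus turned from more in monocytes to more in neutrophils.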

How the data were processed

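Total RNA of sorted cells was sequenced as paired-end libraries. After read trimming, the authors ran Salmon (version 1.6.0) against Rnor_6.0 cDNA from Ensembl, with its GC and sequence bias options switched on. The output was imported with tximport in R (version 4.1.3). They deposited 1 table of estimated counts per transcript, which the methods call TPM. The values are TPM scaled to each library total, as tested on their decimals, so 1 count is not 1 read, and counting error of reads is not known. Salmon divides reads between transcripts that share sequence, so such transcripts are uncertain. All columns were assigned by name, with 0 left over.

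Values were rounded and tested with edgeR (version 4.0.16) in R 4.3.3, quasi-likelihood with TMM normalization, on the 12 samples and all transcripts with a mean of at least 1 TPM. The planned test for TPM was limma (version 3.58.1), which is given as an alternative with DESeq2 (version 1.42.0). Scores per sample were compared by exact permutation tests in scipy 1.17.1. Named transcripts were the first 2 in each direction by the rule given with them. The fits were tested on simulated data with equal numbers of transcripts changed in each direction, which cannot test the dependence on scaling. Sample columns and lists were chosen with earlier results of these data known.

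The replicate numbers were not taken as pairs. Alternatives covered scaling, tool, filter, samples in the fit, a replicate block, detection limits and leaving out each sample. Lists and folds against lymphocytes, the 2-fold limit and limma with TMM normalization were added after seeing the data.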

Additional observations from a re-analysis of the deposited data

Results flagged for a closer look

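In 32 groups of 6 samples, 6 values lay further from the others than Dixon's 95% limit allows, where chance gives about 1 in 20 groups. The total of neutrophil replicate 5 was 3429971, against 10154776 to 13576585 in the other neutrophil samples, and its number of transcripts above 0 was 15314, against 16834 to 17190. After rarefaction to equal depth its number was 15017, against 15305 to 15645. Monocyte replicate 2 was the highest monocyte sample in the share of the 10 most abundant transcripts (11.5%, against 9.11% to 9.68%) and of the 1000 most abundant (71.8%, against 70.5% to 70.7%), and the lowest in the effective number (1777, against 1932 to 1983). These 3 measures describe the same distribution and are not separate observations. ENSRNOT00000087826 was at 9.88 TPM in monocyte replicate 4 and listed at 0 in the other 5 monocyte samples. With 5 values at 0 any value above 0 passes that limit, so this one is not to be set against the share that chance gives.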

How the results depend on the processing

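The count of differing transcripts stayed within 1.5 times of 6365 under every alternative, and leaving out 1 sample gave 5900 to 6343. Its split depended on the scaling. Transcripts higher in neutrophils numbered 1579 without TMM normalization, 1584 in limma with a pseudocount of 1 and 1561 with 0.1, all scaled to the total, and those higher in monocytes 6349, 6572 and 6494. In limma with TMM normalization the numbers were 3079 and 3467. With a mean of at least 10 TPM, where 7638 transcripts were tested, 2469 were higher in neutrophils and 2106 in monocytes, and in the fit of all 36 sorted samples 3305 and 2845. Leaving out 1 sample gave 2898 to 3164 higher in neutrophils and 3002 to 3330 higher in monocytes. DESeq2 gave 3333 and 3083. Without neutrophil replicate 5 the numbers were 3164 and 3076, so the larger side turned. The difference in the number of transcripts above 0 passed the test only with a minimum level (-326 at 1 TPM and -937 at 10 TPM). Leaving out 1 sample moved the rarefied difference between -160 (without neutrophil replicate 6) and -34.5 (without neutrophil replicate 5), with the exact permutation test not passed in any case, and the share of the top 10 between 5.86 and 6.77 percentage points. Transcripts found in monocytes and not in neutrophils numbered 3 with a limit of 0 and 0 with at least 10 TPM, and 5 to 7 without 1 sample. For neutrophils the number was 0 to 4 without 1 sample, with 4 without monocyte replicate 1, 3 without monocyte replicate 2 and 2 without neutrophil replicate 5 or monocyte replicate 3. The 4 named transcripts kept their direction and call in all 21 alternatives. They were chosen on these same samples for large folds without overlap, so this is no independent support. Without monocyte replicate 4 ENSRNOT00000087826 was listed at 0 in all monocyte samples, and its fitted log2 fold change of 12.9 has no meaning as a size. With the replicate block 6326 transcripts differed, 3098 higher in neutrophils and 3228 in monocytes. Same-numbered samples deviated together by r between 0.0252 and 0.169, over 0.1 in 2 of 6 pairs, and 4 of 6 neutrophil samples correlated best with the monocyte sample of their own number, a hint from the data and not from the design.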
